A study of Mus musculus with 3 samples.

Results

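The genes described are 10 that act in autophagy, chosen by symbol: the cargo receptors Sqstm1 (p62) and Optn, the LC3 and GABARAP genes Map1lc3a, Map1lc3b, Gabarap, Gabarapl1 and Gabarapl2, the initiation genes Ulk1 and Becn1, and the transcription factor gene Tfeb. All 10 were found among the 55536 annotated genes of the deposited tables. The data are total RNA-seq, after ribosomal RNA depletion, of cytosolic RNA from macrophages that were grown from the bone marrow of C57BL/6J mice, as primary cells. The cells had received 100 ng/ml Lipid A, the membrane anchor of lipopolysaccharide and ligand of Toll-like receptor 4, for 12 h, were washed for 12 h and received 100 ng/ml Lipid A again for 30 min. The labels name no genetic change, and age and sex were not collected. There is 1 group of 3 biological replicates with the same donor entry, so the spread given is that between these samples, which may be technical. No untreated, once-treated or nuclear sample was analysed here, so no value below is a response to Lipid A.

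Autophagy encloses cytoplasm in a double membrane and delivers it to the lysosome. The ULK1 kinase complex and the Beclin 1 lipid kinase complex start the membrane, and ubiquitin-like proteins of the LC3 and GABARAP subfamilies are then attached to its lipid. Receptors such as p62 and optineurin bind ubiquitin-marked cargo with one part and LC3 or GABARAP with another. TFEB drives transcription of lysosomal and autophagy genes when it enters the nucleus. In macrophages the same machinery clears bacteria and damaged organelles, and p62 also holds signalling complexes and the NRF2 repressor KEAP1.

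The coding ends of the LC3 and GABARAP genes are shown because the reading frame there holds the glycine that the ATG4 proteases expose for attachment to lipid. Each sequence is the coding strand on mm10 from the annotated transcripts, read from 9 codons before that glycine to the stop codon, with the glycine codon, the last in frame, in capitals. The regions are chr2:155277602-155277637 for Map1lc3a, chr8:121596723-121596770 for Map1lc3b, chr11:69994489-69994524 for Gabarap, chr6:129541132-129541167 for Gabarapl1 and chr8:111952370-111952405 for Gabarapl2. All 5 genes lie on the plus strand.
Map1lc3a: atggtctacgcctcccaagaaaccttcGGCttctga
Map1lc3b: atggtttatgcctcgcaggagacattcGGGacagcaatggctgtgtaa
Gabarap: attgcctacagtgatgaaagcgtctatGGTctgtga
Gabarapl1: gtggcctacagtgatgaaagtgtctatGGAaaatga
Gabarapl2: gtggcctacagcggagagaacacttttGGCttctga

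The glycine was codon 120 in the LC3 genes and codon 116 in the GABARAP genes. A single codon followed it in all but Map1lc3b, where 5 followed. Over the whole coding sequence, Map1lc3a and Map1lc3b were 76.6% identical in bases, and Gabarap and Gabarapl1 were 74.6% identical. Gabarapl2 was 63.2% identical to Gabarap and 63.5% to Gabarapl1. Identity between an LC3 gene and a GABARAP gene ran from 53.0% to 60.5%.

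The receptors carry the matching short stretch, the LC3-interacting region, whose core has an aromatic and a hydrophobic residue that dock into pockets of LC3 and GABARAP. Its codons are shown on the coding strand with the core in capitals. Each core was located by the codons of the core residues already known for that receptor. The search gave 1 in-frame match in each transcript, but it could not find other such regions. In Sqstm1 the core was codons 340 to 343 of 442, and the whole stretch shown lies at chr11:50202538-50202567 on the minus strand. In Optn the core was codons 188 to 191 of 584, and the whole stretch shown lies at chr2:5045993-5046022 on the minus strand.
Sqstm1: ggaggagacgatgacTGGACACATTTGtct
Optn: tcctcggaagactccTTCGTTGAGATCagg

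All 10 genes reached 1 TPM, the detection limit used, in every library, against 41.2% of the 22028 protein-coding genes. TPM is a length-scaled share of all transcripts in a library, and values are mean ± SD with n = 3 libraries unless stated. Sqstm1 and Gabarap stood far above the other 8 genes and held 80.3% ± 1.66 of the summed TPM of the 10. Among the 9080 detected protein-coding genes Sqstm1 lay at percentile 98.7 and Gabarap at 98.6. Ulk1 and Map1lc3a were the lowest, both at percentile 28.1. At 5 TPM in every library, 8 of the 10 still passed.

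**Figure D1:**
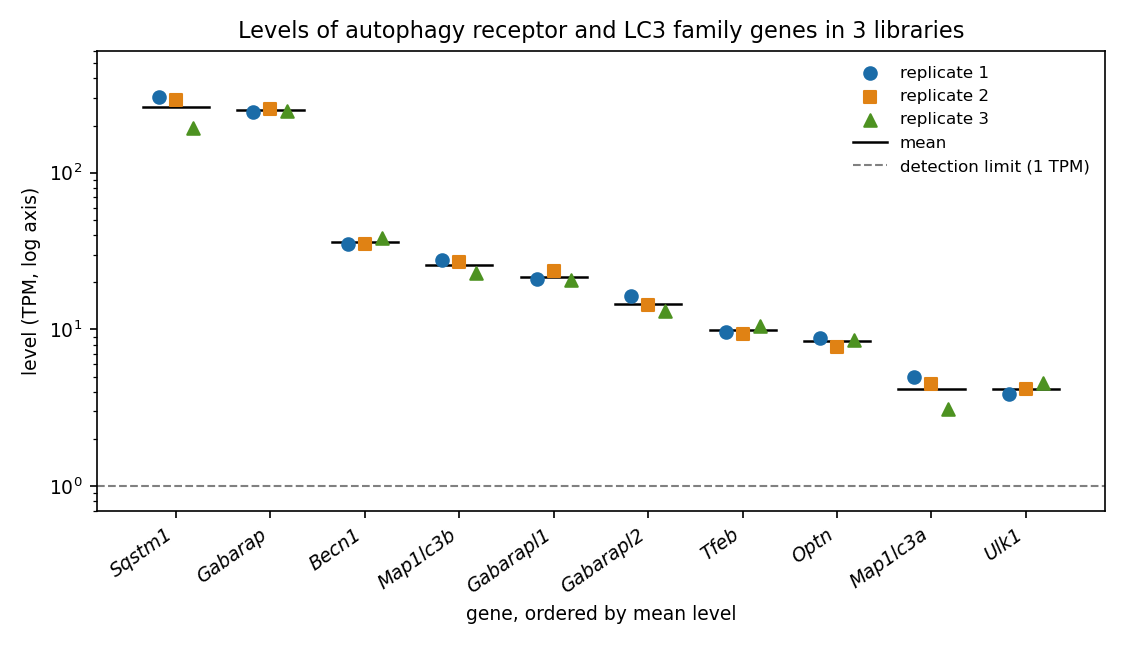
Level of each gene in TPM on a log axis, with 1 point per library, a line at the mean of 3 libraries and a dashed line at 1 TPM. Sqstm1 and Gabarap lie between 193.01 and 303.87 TPM, and the other genes lie between 3.12 and 38.26 TPM.

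Sqstm1, which lies at chr11:50199366-50210827 on the minus strand, encodes p62, a receptor for ubiquitin-marked aggregates, bacteria and organelles. Its level was 303.87 TPM in replicate 1, 289.97 TPM in replicate 2 and 193.01 TPM in replicate 3, a mean of 262.3 ± 60.4 TPM. Replicate 3 stood below the other libraries, and the mean without it was 296.9 TPM. Optn, at chr2:5020642-5064051 on the minus strand, encodes optineurin, a receptor that is known for clearing damaged mitochondria and Salmonella. It held 8.83, 7.79 and 8.54 TPM in replicates 1, 2 and 3, and the libraries lay close together around 8.39 ± 0.537 TPM. Within each library Sqstm1 exceeded Optn by 4.78 ± 0.38 on the log2(TPM + 1) scale, the pseudocount of 1 being used for all such ratios.

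The other cargo receptors fell between those levels, except Calcoco1, which stood below Optn in every library. The list held 8 receptors, all 8 detected, with a median of 16.4 TPM. Ncoa4, the receptor for ferritin, held 101.1 ± 10.6 TPM and Tax1bp1, a ubiquitin-binding receptor, 40.8 ± 3.78 TPM. Calcoco1 was the lowest of the list at 4.0 ± 0.092 TPM. Nbr1, a p62-related receptor named here after its values were seen, held 17.6 ± 1.31 TPM. Sqstm1 exceeded Ncoa4 by 1.34 ± 0.35, Tax1bp1 by 2.63 ± 0.32 and Nbr1 by 3.79 ± 0.39 on the log2 scale, each in 3 of 3 libraries. Of the 10 receptors for mitochondria and endoplasmic reticulum, all were detected. Rtn3, a receptor on endoplasmic reticulum tubules, was highest at 73.4 ± 5.97 TPM, followed by the mitochondrial receptor Fkbp8 at 58.8 ± 4.47 TPM, and the mitochondrial receptor Bnip3 was lowest at 5.42 ± 0.485 TPM.

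Gabarap dominated the LC3 and GABARAP family. Gabarap, at chr11:69991143-69994951 on the plus strand, held 245.71, 256.52 and 248.55 TPM in replicates 1, 2 and 3. Its mean was 250.3 ± 5.60 TPM, with the libraries close together on this scale. In the kallisto-layout table, where all 10 genes had lower TPM, it stood at 94.9 ± 23.3 TPM. GABARAP proteins are known for late steps of autophagosome formation and for binding ULK1. Gabarapl1, at chr6:129533160-129542346 on the plus strand, held 20.95, 23.57 and 20.81 TPM, a mean of 21.8 ± 1.55 TPM with replicate 2 the highest. Gabarapl2 (GATE-16), at chr8:111940703-111953612 on the plus strand, held 16.42, 14.3 and 13.11 TPM, a mean of 14.6 ± 1.68 TPM. Within each library Gabarap exceeded Gabarapl1 by 3.47 ± 0.07 and Gabarapl2 by 4.01 ± 0.17 on the log2 scale.

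Map1lc3b, at chr8:121590361-121598760 on the plus strand, encodes LC3B, the form most used as an autophagosome marker. It held 27.8, 26.82 and 22.84 TPM in replicates 1, 2 and 3, a mean of 25.8 ± 2.63 TPM. Map1lc3a, which encodes LC3A, lies at chr2:155276297-155278073 on the plus strand and held 5.01, 4.46 and 3.12 TPM, a mean of 4.197 ± 0.972 TPM. Both were lowest in replicate 3, and their ranges did not overlap. Map1lc3b exceeded Map1lc3a by 2.38 ± 0.14 on the log2 scale, and Gabarap exceeded Map1lc3b by 3.23 ± 0.15.

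Of the summed TPM of the 5 genes, Gabarap held 79.0% ± 1.42, Map1lc3b 8.15% ± 0.702, Gabarapl1 6.87% ± 0.321, Gabarapl2 4.61% ± 0.511 and Map1lc3a 1.32% ± 0.290. The LC3 subfamily together held 10.4%, 9.60% and 8.42% in replicates 1, 2 and 3, a mean of 9.47% ± 0.992. By the second deposited transcript table, which has the layout of kallisto, the LC3 share was 13.1% ± 0.912. By expected counts, which do not divide by length, it was 16.2% ± 1.07. The GABARAP genes held the larger part in every library under all 3 measures.

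**Figure D2:**
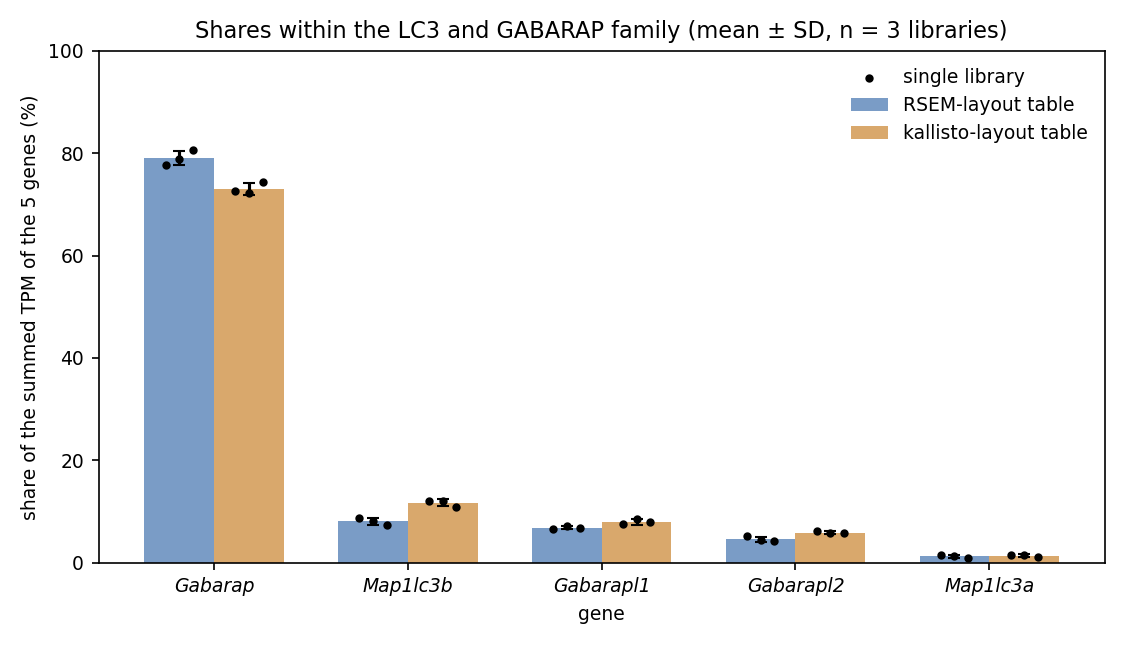
Share of the summed TPM of the 5 LC3 and GABARAP genes held by each, in percent, as bars of mean ± SD over 3 libraries with 1 point per library, for both deposited quantifications. Gabarap holds 79.0% in the RSEM-layout table and 73.0% in the kallisto-layout table, and each other gene holds under 15% in both.

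Becn1, at chr11:101285952-101302286 on the minus strand, encodes Beclin 1, the scaffold of the lipid kinase complex. It held 35.02, 34.99 and 38.26 TPM in replicates 1, 2 and 3, a mean of 36.1 ± 1.88 TPM, the third level of the 10. It was also the highest of the 8 genes of its list, all 8 detected. The next were Uvrag, a subunit of the endosomal form of the complex, at 13.8 ± 1.36 TPM and Nrbf2, a subunit of the ATG14 form, at 11.5 ± 1.31 TPM. Atg14 itself was lowest at 3.58 ± 0.141 TPM. Only a small part of the Becn1 TPM lay on coding transcripts, as described with the transcripts below.

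Ulk1, at chr5:110784488-110810097 on the minus strand, encodes the kinase that mTORC1 and AMPK control. It held 3.85, 4.16 and 4.57 TPM in replicates 1, 2 and 3, a mean of 4.19 ± 0.361 TPM, the lowest of the 5 genes of its complex. The related kinase gene Ulk2, named here after its values were seen, held 6.78 ± 0.188 TPM and exceeded Ulk1 by 0.59 ± 0.08 on the log2 scale. The scaffold genes of the complex, Atg13 at 8.21 ± 0.868 TPM and Rb1cc1 (FIP200) at 7.74 ± 0.629 TPM, were its highest, and Atg101 held 5.49 ± 0.151 TPM. Becn1 exceeded Ulk1 by 2.84 ± 0.05.

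Tfeb, at chr17:47737030-47792419 on the plus strand, held 9.71, 9.3 and 10.6 TPM in replicates 1, 2 and 3, a mean of 9.87 ± 0.665 TPM. Its libraries lay close together. Of the 4 genes of this factor family, the related Tfe3 was highest at 30.2 ± 0.525 TPM and exceeded Tfeb by 1.52 ± 0.10 on the log2 scale. Mitf held 15.1 ± 1.21 TPM and Tfec, the form found mainly in macrophages, 9.22 ± 1.83 TPM. The levels say nothing of how much TFEB protein was in the nucleus.

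Ordered by mean level, the genes ran Sqstm1, Gabarap, Becn1, Map1lc3b, Gabarapl1, Gabarapl2, Tfeb, Optn, Map1lc3a and Ulk1. A step between neighbours was read as larger than the spread when its sign was the same in 3 of 3 libraries and its mean exceeded 3 SD. Of the 9 steps, 1 passed, the one from Gabarap to Becn1, at 2.76 ± 0.09 on the log2 scale. Sqstm1 lay above Gabarap by 0.31 and 0.18 in replicates 1 and 2 and differed by -0.36 in replicate 3, so that the order of these 2 genes was not settled. Map1lc3a and Ulk1 differed by -0.01 ± 0.38. The order among the other 8 steps was thus not resolved at 3 SD. Of these, 6 kept their sign in every library, but the genes were ordered by the mean of the same libraries. That sign therefore follows largely from the ordering, and only the size of a step against its SD was read. The two-sided exact sign-flip test over 3 libraries cannot go below p = 0.25, and the other ratios between genes given above were chosen after their levels were seen.

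The number of steps past 3 SD rested on single libraries. It was 4 without replicate 1, 1 without replicate 2 and 4 without replicate 3, where an SD comes from 2 libraries. By the kallisto-layout table it was also 4.

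Replicates were then compared on counts. A chi-square test of homogeneity on the rounded expected counts, given effective library sizes, asked whether the 3 libraries differed by more than counting noise. Of the genes averaging 10 counts or more, 64.8% (8689 of 13403) did so at a Benjamini-Hochberg adjusted p under 0.05. Of the 10 genes, 7 did. The share depends on the number of counts: among the 8908 genes with at least the 246 mean counts of the lowest of the 10, it was 75.4%, so 7 of 10 is near the background. Becn1 (adjusted p = 0.145), Optn (adjusted p = 0.137) and Tfeb (adjusted p = 0.208) were not called by this chi-square test.

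The largest difference was that of Sqstm1. Its counts, scaled to effective library size as CPM, were 916.3 in replicate 1, 939.2 in replicate 2 and 576.9 in replicate 3. Replicate 3 was lower than the mean of the other 2 libraries by a log2 ratio of -0.69, and the chi-square statistic was 4914. Map1lc3a followed, with 6.55, 6.14 and 4.22 CPM, a log2 ratio of -0.59 for replicate 3 and a chi-square adjusted p of 1.38e-05. Map1lc3b stood at -0.22 (chi-square adjusted p = 3.88e-18), with replicate 3 again the lowest. Gabarap (chi-square adjusted p = 4.89e-15) and Gabarapl1 (chi-square adjusted p = 1.24e-11) were highest in replicate 2, at log2 ratios of 0.11 and 0.23 over the other libraries. Gabarapl2 (chi-square adjusted p = 0.00991) was lowest in replicate 3 at -0.15, and Ulk1 (chi-square adjusted p = 0.0441) was lowest in replicate 1 at -0.14.

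**Figure D3:**
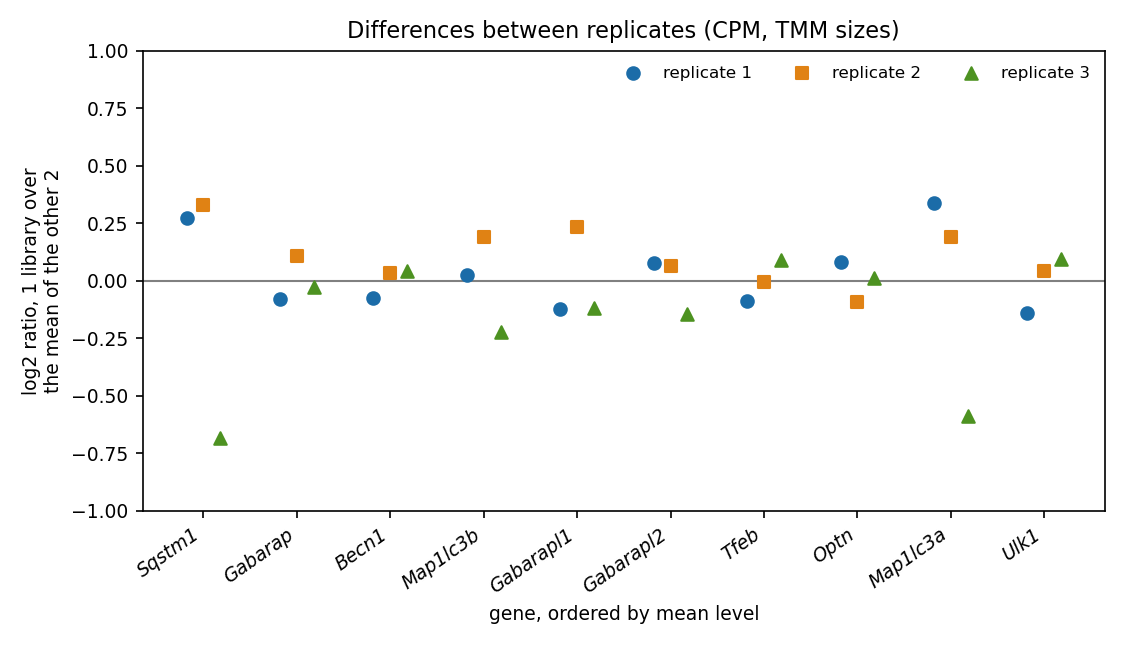
Log2 ratio of the CPM of 1 library over the mean of the other 2, for each gene and replicate, with TMM effective library sizes. Sqstm1 and Map1lc3a lie at -0.69 and -0.59 in replicate 3, and every other point lies between -0.25 and 0.35.

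These calls also rested on which libraries were compared. Without replicate 1, 6 of the 10 genes were called, against 51.6% of all genes tested, and Ulk1 was lost. Without replicate 2, 5 were called, against 44.4%, and Gabarap and Gabarapl1 were lost. Without replicate 3, 4 were called, against 42.5% (5547 of 13057), and Gabarapl2, Map1lc3a and Ulk1 were lost. The share of all genes called thus fell along with that of the 10. With DESeq2 size factors 6 were called, without Ulk1, against 64.4% of all genes tested. With no count filter the same 6 were called, against 40.4%. With the kallisto-layout estimated counts 8 were called, against 69.8%. Optn was the gene gained (chi-square adjusted p = 0.0334, in a range from 0.0334 to 0.522 over all alternatives run). Sqstm1 and Map1lc3b were called under each of these settings.

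Replicate 3 also differed in genes outside the 10. Of 4 tested nuclear-retained RNAs, all 4 were higher in it (median log2 ratio 1.17). The other libraries also differed in these RNAs. All 4 were lower in replicate 2 (median -1.33), and 3 of 4 were lower in replicate 1 (median -0.22). Malat1, the highest of them, held 303.6, 182.5 and 637.8 TPM in replicates 1, 2 and 3. Among 8 targets of NRF2, a factor that also drives Sqstm1, 7 fell below the other libraries in replicate 3 (median log2 ratio -0.52), and Hmox1 was higher at 0.42. Those targets were lower in replicate 1 too, 7 of 8 with a median of -0.41, and higher in replicate 2, 7 of 8 with a median of 0.67, whereas Sqstm1 had 916.3 and 939.2 CPM in replicates 1 and 2. All 5 LC3 and GABARAP genes were lower in replicate 3, with a median of -0.15. Of 70 other genes of the autophagy lists, 45 were lower in replicate 3, with a median of -0.07. Over all 13403 genes tested, 7053, 6594 and 6643 were lower in replicates 1, 2 and 3, and the median in replicate 3 was 0.00. The part of the nuclear RNA or of NRF2 in the Sqstm1 difference was not tested.

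The spread of the genes was set against that of all others as the biological coefficient of variation that edgeR estimates over the 3 libraries. These are tagwise estimates, which edgeR draws toward a trend over all genes, so a low value is not the spread of that gene alone. The median over the 10 genes was 0.105, against 0.134 over the 12738 genes fitted, and 8 of 10 lay below the latter. Becn1 had the lowest value at 0.0984, at percentile 2.95 of all genes, followed by Optn at 0.09997 and Tfeb at 0.101. Sqstm1 at 0.187 and Map1lc3a at 0.195 were the exceptions, at percentiles 70.9 and 72.4. Without replicate 3 they stood at 0.131 and 0.152. With no low-count filter the median over all genes was 0.321, and all 10 genes lay below it. The comparison and the percentiles thus depend on the counts of the genes compared, and no background of like counts was run. They also depend on the trend. Becn1 had 75.4 ± 2.25 CPM and Gabarap 394.4 ± 17.7 CPM, each a smaller relative spread than its estimate of 0.0984 or 0.120.

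The 10 genes have 74 annotated transcripts, and their levels depend on how reads are divided among these. By share of TPM, the same transcript led in both quantifications in 9 of 10 genes. The leading transcript of the RSEM-layout table, again by TPM, was protein-coding in 9 of 10. Over the 10 genes, the median share of a gene's TPM on protein-coding transcripts was 95.9% in the RSEM-layout table and 91.4% in the kallisto-layout table.

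Becn1 was the gene that stood apart. By TPM its leading transcript was Becn1-211, annotated as a retained intron and 487 bases long. It held 41.3%, 45.03% and 48.4% of the gene's TPM in replicates 1, 2 and 3. In the kallisto-layout table it held 36.6% ± 1.40. Becn1-201 and Becn1-215, both annotated as subject to nonsense-mediated decay, the pathway that degrades messages with early stop codons, held 27.8% ± 3.81 and 13.7% ± 0.358. In the kallisto-layout table they held 29.1% ± 3.68 and 19.6% ± 0.889. Transcripts annotated as protein-coding held 9.68% ± 1.02 of TPM, or 4.63% ± 0.759 in the kallisto-layout table. Becn1-205, which codes for the whole protein of 448 codons, stood at 3.33 ± 0.602 TPM of the 36.1 TPM of the gene.

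The unit weighed on this split, since TPM gives a short transcript more weight per read. By expected counts, which do not, protein-coding transcripts of Becn1 held 26.6%, 34.4% and 35.1% in replicates 1, 2 and 3. Those annotated for nonsense-mediated decay held 51.4% ± 4.83 and those with retained introns 16.5% ± 3.33. The leading transcript changed as well. Becn1-201 led with 43.5% of counts, ahead of Becn1-205 with 31.5% and Becn1-211 with 9.85%. Becn1-205 has 2310 exonic bases that Becn1-201 lacks, and Becn1-201 has 68 that Becn1-205 lacks. They share 254 coding bases, and Becn1-201 stops after 105 codons. Becn1 had 2054, 4290 and 3802 expected counts in replicates 1, 2 and 3, fewer than the 2539, 5428 and 3961 of Map1lc3b, although its TPM was higher in every library.

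**Figure D4:**
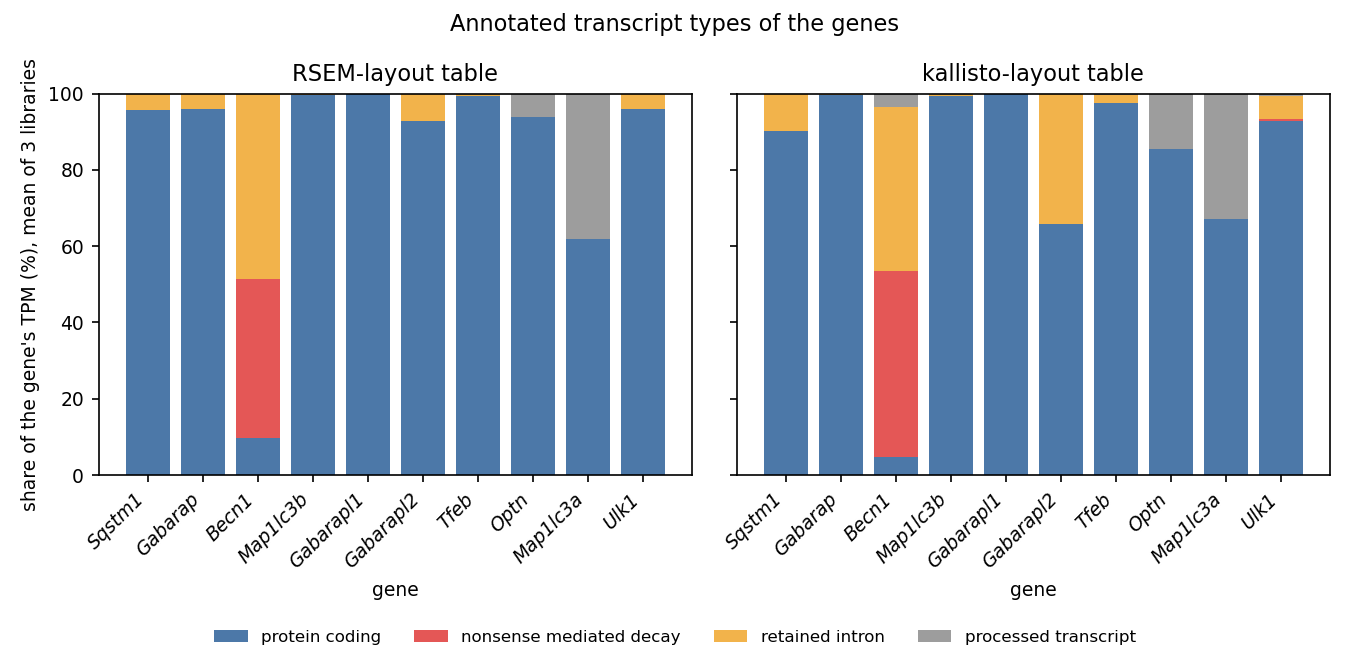
Share of each gene's TPM on transcripts of each annotated type, in percent, as stacked means of 3 libraries, for the RSEM-layout and kallisto-layout tables. Protein-coding transcripts hold 9.68% and 4.63% of Becn1 in the 2 tables and more than 60% of every other gene in both.

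Gabarap was divided between Gabarap-201 with 63.1% ± 1.32 and Gabarap-202 with 33.0% ± 1.31, both annotated as protein-coding. The kallisto-layout table gave 86.3% ± 4.19 and 13.2% ± 4.32. Gabarap-202 leaves out 94 of the 351 coding bases and reads on to another stop codon, so that its 106 codons do not hold the glycine end shown above. In TPM, Gabarap-201 alone stood at 157.52, 157.99 and 157.9 in replicates 1, 2 and 3, still the highest value of the family. For Map1lc3a, the share on the transcript with the glycine end was 61.8% ± 3.33. The rest lay on Map1lc3a-203, a transcript with no annotated coding part, at 38.2% ± 3.33, or 33.0% ± 2.87 in the kallisto-layout table.

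For Map1lc3b and Gabarapl1, more than 98% of TPM lay on transcripts with the glycine end in each library and in both quantifications. Map1lc3b-201 held 81.2% ± 3.93 and Map1lc3b-205, which adds 105 coding bases within the frame, 17.0% ± 4.93. The kallisto-layout table put them at 48.2% ± 1.57 and 39.2% ± 8.94, with 11.7% ± 8.33 on Map1lc3b-203. Gabarapl1-201 held 99.6% ± 0.648, or 87.0% ± 3.18 in the kallisto-layout table, where Gabarapl1-204 with the same coding length held 12.5% ± 2.41. Gabarapl2-201 held 92.7% ± 8.18 against 65.8% ± 2.63. The difference lay in the retained-intron transcript Gabarapl2-203, at 15.7%, 5.17% and 0% in replicates 1, 2 and 3 of the RSEM-layout table and 33.9% ± 2.54 in the other.

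Among the receptors, Sqstm1-202 held 90.04% ± 2.47 of Sqstm1 TPM, or 86.6% ± 3.44 in the kallisto-layout table. It codes for 442 codons, 38 codons more than Sqstm1-201, which held 5.60% ± 0.327. Both keep the start and the stop. Optn-202 held 86.7% ± 3.27, or 82.5% ± 2.35. Ulk1-201 held 93.4% ± 3.27, or 87.9% ± 3.32. Tfeb was the gene whose leading transcript differed: Tfeb-212 led with 49.7% ± 7.19 against 45.7% ± 6.96 for Tfeb-202, and the kallisto-layout table put Tfeb-202 at 55.5% ± 14.4 and Tfeb-212 at 24.6% ± 10.4. In the RSEM-layout table the SD of these shares was larger than their difference. By its expected counts Tfeb-202 led, with 56.7% against 40.4% for Tfeb-212, so the order of the 2 transcripts depended on the unit and the table. Tfeb-212 lacks 423 coding bases at the 5′ side that the 475 codons of Tfeb-202 include.

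Few other loci of note share sequence or position with the 10 genes. Near-identical copies, at least 95% identical over at least 80% of the shorter transcript, were 7 processed pseudogenes, 4 of Map1lc3b and 3 of Gabarapl2. The highest was Gm6055, a copy of Map1lc3b, at 0.367 TPM, so none reached 1 TPM. The read-through gene Gm20388 spans all of Map1lc3b on the same strand with a mean of 3249 expected counts, but its annotated exons share 0 bases with those of Map1lc3b. Becn1 exons overlap those of Cntd1 on the opposite strand over 3104 bases, and Cntd1 held 0.0467 TPM. Zcchc14 overlaps the end of Map1lc3b over 58 bases at 0.72 TPM. Also on the opposite strand, exons of Mrnip overlap those of Sqstm1 over 580 bases at 0.34 TPM. Those of 1700101I11Rik overlap Gabarapl1 exons over 570 bases at 0.0433 TPM, and those of 4930551O13Rik overlap Optn exons over 73 bases at 0.123 TPM. Whether counting used strand is not given in the sources used here, so reads of opposite genes cannot be told apart.

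Beyond the 10 genes, nearly all genes of the chosen lists, which need not cover the whole pathway, were detected. Of 80 genes in 10 lists, 78 were detected, as were 68 of the 70 that are not among the 10, against 41.2% of the 22028 protein-coding genes. The exceptions, named because they were the only ones, were Atg9b, a paralogue of the lipid scramblase gene Atg9a, at 0.64 ± 0.193 TPM and Atg16l2, a paralogue of the conjugation gene Atg16l1, at 1.01 ± 0.292 TPM with 2 libraries under the limit. The median of the 70 was 8.22 TPM, against 8.32 TPM over all detected protein-coding genes. Of the 70, 55 differed between replicates beyond counting noise by the chi-square test, 78.6% against the 64.8% of all genes tested and 73.0% of the 9080 detected protein-coding genes. The last share is the nearer background, since 68 of the 70 were detected.

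The lists differed in level. Genes for membrane supply and lipid transfer had a median of 4.31 TPM over 10 genes, led by Vmp1 at 44.7 ± 6.01 TPM and Tmem41b at 15.2 ± 1.64 TPM, both lipid scramblases of the endoplasmic reticulum. Wipi1, a lipid-binding protein of the early membrane, was the lowest detected at 1.92 ± 0.242 TPM. The genes that attach LC3 to lipid had a median of 6.32 TPM over 11 genes. They were led by the E2-like Atg3 at 17.5 ± 1.26 TPM and the E1-like Atg7 at 13.6 ± 0.527 TPM, with Atg10 lowest of those detected at 3.55 ± 0.611 TPM. Each of these stood below Gabarap, the substrate, in every library.

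Genes for fusion with the lysosome had the highest median, 22.7 TPM over 8 genes. Rab7, the small GTPase of late endosomes, held 131.5 ± 3.83 TPM and the SNARE Vamp8 112.4 ± 11.3 TPM, whereas the tether Epg5 held 3.07 ± 0.413 TPM. Among 11 genes that control or form mTORC1, the kinase complex that holds ULK1 and TFEB in check, all were detected. Lamtor1, its lysosomal anchor, held 86.6 ± 3.36 TPM and the GTPase Rragc 55.6 ± 7.54 TPM, with the subunit Mlst8 lowest at 2.98 ± 0.280 TPM.

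**Figure D5:**
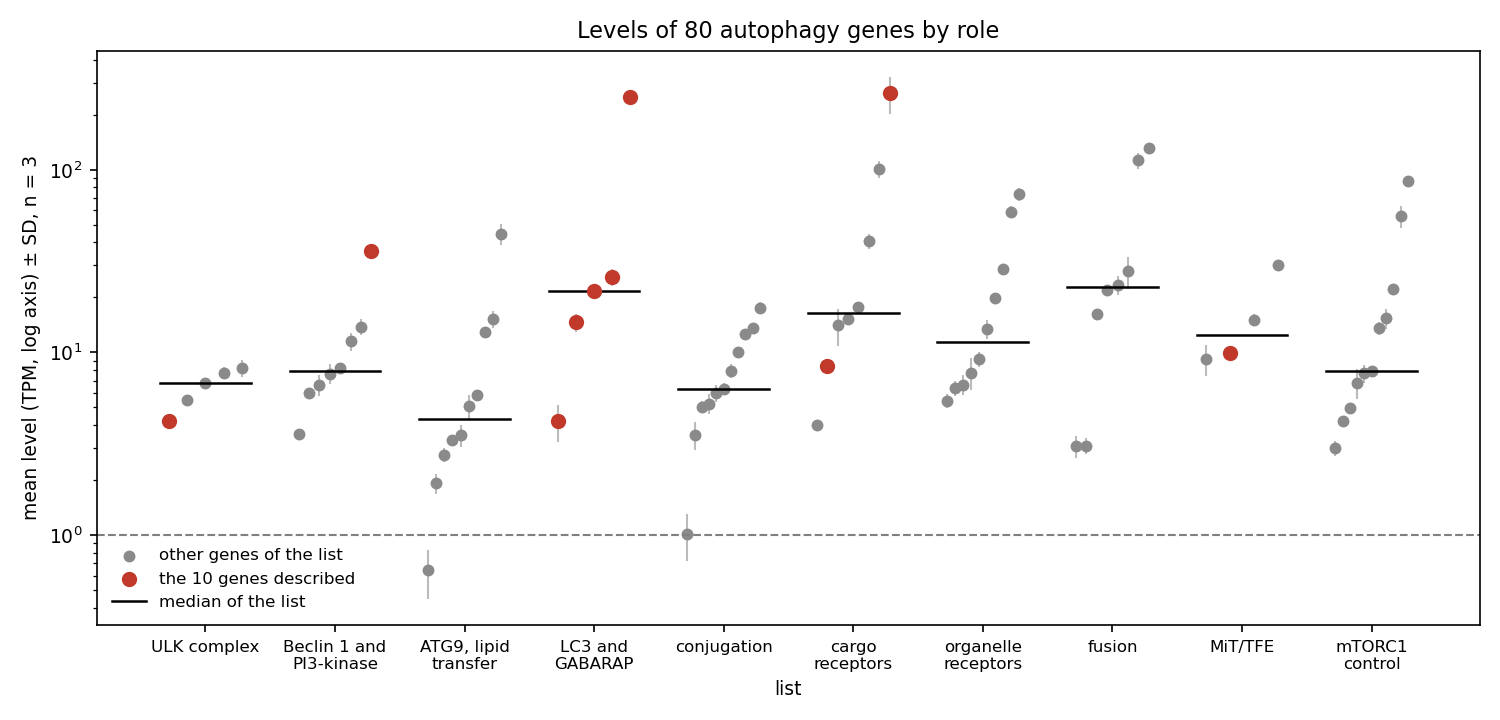
Mean level in TPM on a log axis with SD over 3 libraries for 80 autophagy genes in 10 lists, with the 10 genes described in red, the other genes in grey, a line at the median of each list and a dashed line at 1 TPM. Gabarap and Sqstm1 are the highest points of all lists, followed by Rab7, Vamp8 and Ncoa4, and Ulk1 is the lowest point of its list.

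The libraries held 28759407, 54709008 and 49878183 expected counts in annotated genes for replicates 1, 2 and 3. The 10 genes had between 185 counts, for Map1lc3a in replicate 1, and 52637 counts, for Sqstm1 in replicate 2, so that Map1lc3a was the least precisely measured. All 8 macrophage markers were detected, with a summed level of 4812 to 5079 TPM per library. Lyz2 made up most of that sum, at 3194 ± 13.1 TPM. Single markers differed more between libraries, with log2 ratios of replicate 2 over the other libraries from -0.88 to 0.82. None of 30 markers of neutrophils, T and NK cells, B cells, dendritic cells, stroma and erythroid cells reached 1 TPM in any library. Their summed level was 0.83 to 1.2 TPM, and 4 of the 30 had 0 counts throughout, where a count of 0 allows up to 3 counts by counting error alone.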

How the data were processed

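Total RNA-seq of 3 libraries of 1 group was analysed from tables the authors deposited, without reads. Per the file headers, the columns of the gene and transcript tables match RSEM's and give expected counts, TPM, posterior SDs of the counts and posterior mean TPM. A second deposited table, with kallisto's columns, gives estimated counts and TPM per transcript, summed here per gene. Per the text deposited with the libraries, reads were assigned to GENCODE M21 transcripts on mm10. Aligner, quantifier and strand setting: not given in the sources used here. Rows that name no annotated gene, 0.774%, 0.207% and 0.167% of expected counts in replicates 1, 2 and 3, entered neither library sizes nor tests. TPM is a share, so abundant short RNAs lower all other values.

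Expected counts were rounded. Under R 4.3.3, edgeR 4.0.16 gave effective library sizes (TMM after filterByExpr) and tagwise dispersions, drawn toward a trend (intercept-only fit). The chi-square test used genes averaging 10 counts or more and Benjamini-Hochberg adjustment over all of them. Its p-values measure only the spread between these samples. It and the dispersion fit were tested on simulated data. Other steps used Python 3.11.15, pandas 2.3.3, scipy 1.17.1 and, for copies, blastn 2.17.0. Alternatives were the kallisto-layout values, TPM rescaled to nuclear protein-coding genes, posterior mean TPM, pseudocount 0.1, detection at 0.1 or 5 TPM, DESeq2 1.42.0 size factors, no count filter and leaving out each replicate. The 10 genes, the lists and the tests were chosen with earlier results of these data known. Named are the 10 genes, from each list the 2 highest and the lowest detected other genes, and transcripts with at least 10% of a gene, except where the text says that a gene was named after its values were seen. Sqstm1-201, Becn1-205 and Gm6055 were also named after theirs were seen, as were the overlapping genes. The LC3-interacting cores of Sqstm1 and Optn were searched as codons of the core residues already known for each. No other amino acid sequence was used here.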

Additional observations from a re-analysis of the deposited data

How the results depend on the processing

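The number of the 10 genes detected was 10 under every alternative run except the 5 TPM limit, with 8. The median level of the 10 genes, 18.2 TPM, was 9.07 TPM in the kallisto-layout table, 62.6 TPM when rescaled to nuclear protein-coding genes and, by an alternative chosen after seeing the data, 68.9 TPM when the kallisto-layout values were rescaled the same way. It ran from 17.8 to 18.8 TPM with a replicate left out. The LC3 share of 9.47% became 13.1% in the kallisto-layout table and 16.2% by expected counts, and ran from 9.01% to 9.996% with a replicate left out. The median protein-coding share of 95.9% became 91.4% in the kallisto-layout table. Neighbouring steps beyond 3 SD numbered 4 in place of 1 in the kallisto-layout table, and 1 to 4 with a replicate left out. With a replicate left out, Sqstm1 over Gabarap ran from -0.094 to 0.24 and Map1lc3a over Ulk1 from -0.18 to 0.20, so both changed sign. Genes called beyond counting noise numbered 5547 to 7086 with a replicate left out, in place of 8689. That was 42.5% to 51.6% of the genes tested, in place of 64.8%. Of the 10 genes, 4 to 6 were then called, in place of 7. With the kallisto-layout estimated counts 8 of the 10 were called, against 69.8% of all genes tested, Optn being the one gained. With fewer libraries the test has less to compare; beyond that the cause was not tested. The median coefficient of variation ran from 0.0992 to 0.116 over its alternatives, and 76 to 78 of the 80 list genes were detected over alternatives added after seeing the data. No paired analysis was possible because the labels give 1 group. With 28759407 expected counts, replicate 1 limits the precision for Map1lc3a, the gene with the fewest counts.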
